A study of Mus musculus with 2 samples.

Results

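The genes examined were 8 adhesion molecules of the immunoglobulin family (Vcam1, Icam1, Alcam, Mcam, Ncam1, L1cam, Thy1 and Cd47) and Cd24a, a small surface glycoprotein outside that family. The members were chosen by gene symbol: a probe set belonged to the group if its only symbol in the array's probe annotation was one of these 9 names, which gave 28 probe sets. They are 9 of 18193 genes with a probe set of 1 symbol. No further probe set named a member beside another gene. Transcripts were measured on 1 Affymetrix mouse array for Dunn and 1 for LM8. Dunn is a mouse osteosarcoma cell line, labelled as the parental and non-metastatic line, and LM8 is its subline, labelled as highly metastatic. Neither line was treated, and both were cultured in the same serum-supplemented minimum essential medium. Each line stands for its condition as 1 culture, so a difference between the arrays cannot be told apart from a difference between cultures of 1 line.

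Cell adhesion molecules of the immunoglobulin family carry extracellular immunoglobulin domains that bind the same molecule, a relative or an integrin on a neighbouring cell. Vcam1 and Icam1 bind integrins of white blood cells and are induced through NF-kappaB in inflamed endothelium, whereas Ncam1 and L1cam are best known from neurons, where they bind like molecules. Cd47 presents a signal that inhibits engulfment by macrophages through the receptor SIRP-alpha, and Cd24a is a heavily glycosylated, lipid-anchored protein that can bind P-selectin. Several of these molecules have been followed in tumours because attachment, detachment and contact with blood cells are steps of metastasis.

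Because each line has 1 array, nothing below was tested for significance and no difference could be set against the spread between replicates. Precision is limited by the number of arrays. The values are MAS5 signals on a linear scale, in arbitrary units, and differences are log2 of LM8 over Dunn. Dim signals were raised to a floor, the array median, which was 21.06 for Dunn and 18.96 for LM8. A probe set was counted as measured when its signal exceeded the floor on either array, and as called when the arrays were at least 2-fold apart. Where 1 array lay under its floor and the signal of the other exceeded both floors, the fold is a lower bound, written as at least N-fold. Where LM8 alone was measured with a signal between the floors, the ratio carries no direction. Of 25144 measured probe sets, 5.91% were called higher in LM8 and 7.79% lower. Of 11830 measured genes, each taken at its brightest measured probe set, 6.51% were higher and 8.84% lower. The median log2 ratio of all measured genes was -0.08. It became 0.07 with array medians set equal and 0.16 with scaling on the hybridisation controls, and the higher genes, 42.4% of those called, became 56.9% and 65.9%.

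Promoter sequences were available from RefSeq (GRCm38.p6) for 5 of the 9 members, Icam1, Mcam, Cd47, Alcam and L1cam. Those of Cd47 and Icam1 are shown, the first because Cd47 was the member with a promoter sequence and called probe sets, and the second because Icam1 is a textbook target of NF-kappaB whose signal is reported beside that pathway. Each is the 250 bases before the annotated transcript start, 5′ to 3′ on the plus strand, with capitals marking a match to a motif. The Cd47 window is chr16:49855404-49855653, which lies inside the span of the gene's RefSeq record, and the Icam1 window is chr9:21015690-21015939, directly before the gene.
Cd47: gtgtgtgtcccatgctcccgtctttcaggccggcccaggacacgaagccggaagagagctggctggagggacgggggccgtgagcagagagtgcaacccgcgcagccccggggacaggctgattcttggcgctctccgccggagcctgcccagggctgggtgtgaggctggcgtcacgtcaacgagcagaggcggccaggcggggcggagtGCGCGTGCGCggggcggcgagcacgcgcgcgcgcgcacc
Icam1: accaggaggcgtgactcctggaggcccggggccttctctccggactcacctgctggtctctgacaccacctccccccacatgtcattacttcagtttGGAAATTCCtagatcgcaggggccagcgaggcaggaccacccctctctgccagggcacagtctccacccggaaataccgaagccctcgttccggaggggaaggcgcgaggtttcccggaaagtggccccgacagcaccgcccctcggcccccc
The capitals in Cd47 match GCGCNTGCGC, the core of the motif of the nuclear respiratory factor NRF-1, from 39 to 30 bases before the start. The second Cd47 start in the table lies 7 bases downstream and holds the same match. The capitals in Icam1 match GGAAATTCC, a form of the NF-kappaB motif, from 153 to 145 bases before the start. On either strand, GCGCNTGCGC occurred in 3.74% and GGAAATTCC in 0.286% of 32851 promoter windows of the same length. The motifs do not overlap, and neither was found in the windows of Mcam, Alcam and L1cam. GC content was 73.2% in the Cd47 window and 65.2% in that of Icam1, against a median of 52.4% over all windows. A match describes letters only, and nothing was measured at these promoters.

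Of the 9 members, 5 were measured on at least 1 probe set (Ncam1, Cd47, Cd24a, Alcam and L1cam) and 4 lay under the floor of both arrays on every probe set (Vcam1, Icam1, Mcam and Thy1). Cd24a was higher in LM8 on each of its 3 probe sets, all of which passed only through LM8. Ncam1 was lower in LM8 on 5 of its 7 probe sets by at least 2-fold, and Cd47 on 2 of 5. L1cam and Alcam were dim, with no probe set called. At the level of genes, Cd24a was called higher and Ncam1 lower, and 3 lay between, where 6.51% of all measured genes were higher and 8.84% lower. Over probe sets, 15 of 28 were measured, of which 3 were called higher, 7 lower and 5 lay between. Of all measured probe sets 5.91% were higher and 7.79% lower. Of the 15, 4 passed only through Dunn and 3 only through LM8 (the latter all of Cd24a). The filter fixed the direction of the 4. In the 3 the LM8 signal also exceeded the Dunn floor, so with Dunn under its floor their direction was fixed as well. On the 8 probe sets above both floors, 6 were lower and 0 higher, where 7.21% of all 19892 such probe sets were lower and 5.87% higher. These 6 come from 2 genes, Ncam1 and Cd47, and probe sets of 1 gene are not independent.

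**Figure D1:**
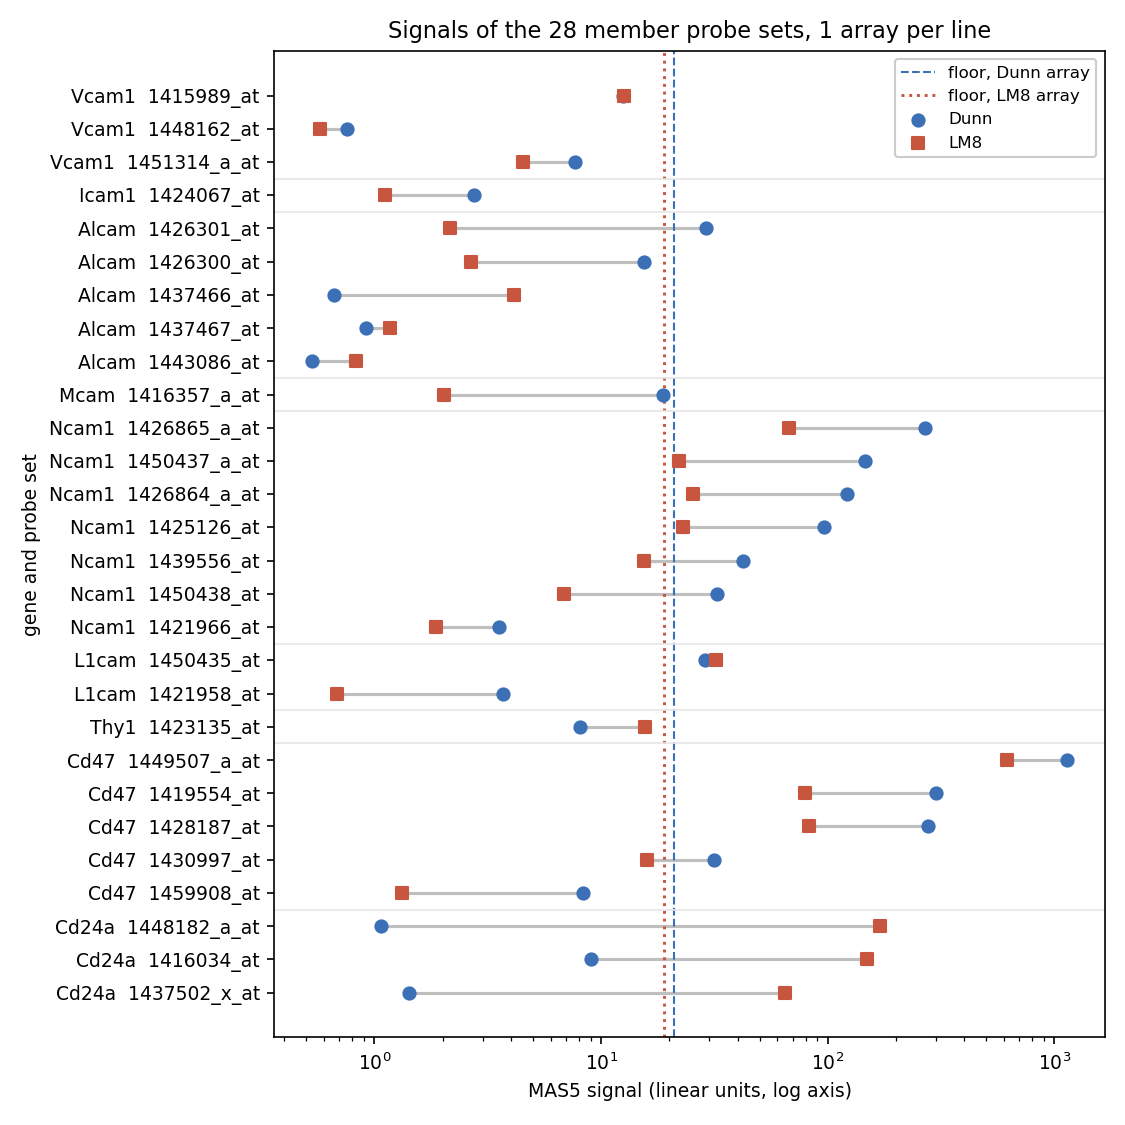
MAS5 signals (linear units on a log axis) of the 28 probe sets of the 9 genes in Dunn (blue circles) and LM8 (red squares), 1 array each, with the floor of each array as a vertical line (dashed for Dunn, dotted for LM8). The Cd24a pairs lie on opposite sides of the floors with LM8 to the right, the 6 measured Ncam1 pairs have Dunn to the right, and Vcam1, Icam1, Mcam and Thy1 lie wholly to the left of the floors.

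Ncam1 encodes the neural cell adhesion molecule, which binds itself on neighbouring cells and exists in transmembrane and lipid-anchored forms. Its brightest probe set, 1426865_a_at, gave 268 in Dunn against 67.6 in LM8. The log2 ratio there was -1.99, which is 3.96-fold lower in LM8. On 3 further probe sets both arrays also lay above their floors, and all were lower in LM8. Their signals were 147 against 22.0 on 1450437_a_at, 121 against 25.4 on 1426864_a_at and 95.9 against 23.0 on 1425126_at. These gave log2 ratios of -2.73, -2.25 and -2.06. The LM8 signals of these 3 lay only a little above the LM8 floor, so their folds rest on dim values in that line.

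Of the dimmer Ncam1 probe sets, 2 passed the filter only through Dunn, which fixed their direction, so they add no support. Probe set 1439556_at was under the floor in LM8, with 42.3 in Dunn against 15.5, and was at least 2.23-fold lower. Probe set 1450438_at had 32.6 against 6.87 and was at least 1.72-fold lower, which is not called. The remaining one, 1421966_at, lay under both floors with 3.53 and 1.87. The log2 ratios of the 4 probe sets above both floors had an SD of 0.34. Over all 6 measured Ncam1 probe sets, which takes in the 2 bounds, the SD was 0.72. Across 5521 genes with at least 2 measured probe sets the median SD between probe sets, which takes in such bounds too, was 0.30. This spread is between probe sets of 1 gene and is not replicate error. Among 11830 measured genes, 171 had a lower log2 ratio than Ncam1.

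Cd47 encodes an integrin-associated membrane protein with a single immunoglobulin domain. Its signal was well above the floor in both lines: 1449507_a_at had 1136 in Dunn and 617 in LM8, a log2 ratio of -0.88 or 1.84-fold lower, just short of the 2-fold rule. The next 2 probe sets were past it. Probe set 1419554_at had 301 in Dunn and 79.0 in LM8, 3.81-fold lower, and 1428187_at had 276 and 82.4, 3.35-fold lower. Of 25144 measured probe sets, 301 and 415 had lower log2 ratios than these 2. Probe set 1430997_at, with 31.5 against 15.9, was at least 1.66-fold lower, a direction fixed by the filter because it passed only through Dunn, and 1459908_at lay under both floors with 8.35 and 1.32.

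The 3 Cd47 probe sets above both floors were lower in LM8, with log2 ratios from -1.93 to -0.88 and an SD of 0.56. Whether Cd47 counts as called depends on the summary of its probe sets. The brightest probe set leaves it between, and the mean over the 4 measured ones, which takes in the bound, puts it past 2-fold. Which transcript forms the probe sets detect was not analysed here.

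Cd24a encodes the heat-stable antigen, a marker of immature blood cells and of several epithelial and tumour cells. In Dunn its 3 probe sets lay under the floor, with signals of 1.07 on 1448182_a_at, 9.03 on 1416034_at and 1.41 on 1437502_x_at. In LM8 the same probe sets had 170, 148 and 64.8. All 3 were therefore above the floor in LM8 only, and the line labelled highly metastatic is the one with a measurable transcript. Passing only through LM8, with signals above both floors, fixed their direction, so only the size of the bounds is informative. The lower bounds were at least 8.06-fold, at least 7.04-fold and at least 3.08-fold higher in LM8, with log2 values of 3.01, 2.82 and 1.62. The last probe set carries the suffix by which Affymetrix marks probes that can match other transcripts, and their part in its signal was not tested. The other 2 do not carry that suffix.

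L1cam encodes a neural adhesion molecule of several immunoglobulin and fibronectin type domains. Probe set 1450435_at had 28.7 in Dunn and 32.0 in LM8, a log2 ratio of 0.16, with both signals near the floors. The other, 1421958_at, lay under both with 3.68 and 0.68. Alcam, which binds itself and the lymphocyte receptor Cd6, was above the floor on 1 of 5 probe sets and in Dunn only. That probe set, 1426301_at, had 29.1 in Dunn and 2.15 in LM8 and was at least 1.53-fold lower. A second, 1426300_at, made from the same source sequence, had 15.5 and 2.67, under both floors. The other 3 Alcam probe sets had signals from 0.53 to 0.92 in Dunn and from 0.83 to 4.11 in LM8.

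The 4 members that were not measured had low signals in both lines. Vcam1 had 12.5, 7.64 and 0.75 on its 3 probe sets in Dunn and 12.6, 4.51 and 0.57 in LM8. Icam1, with 1 probe set, had 2.75 and 1.11. Thy1, a lipid-anchored molecule of T cells, neurons and fibroblasts, had 8.05 in Dunn and 15.7 in LM8 on 1 probe set, both under the floors. Mcam, an adhesion molecule of endothelium and melanoma, had 18.8 in Dunn and 2.03 in LM8 and lay just under the Dunn floor. No fold is given where both arrays are under their floors. Of 77 probe sets of olfactory and vomeronasal receptor genes, which are silent in most tissues, 10.4% exceeded the Dunn floor and 2.60% the LM8 floor. A level of these members below the floor was not detectable here and is not shown to be absent.

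**Figure D2:**
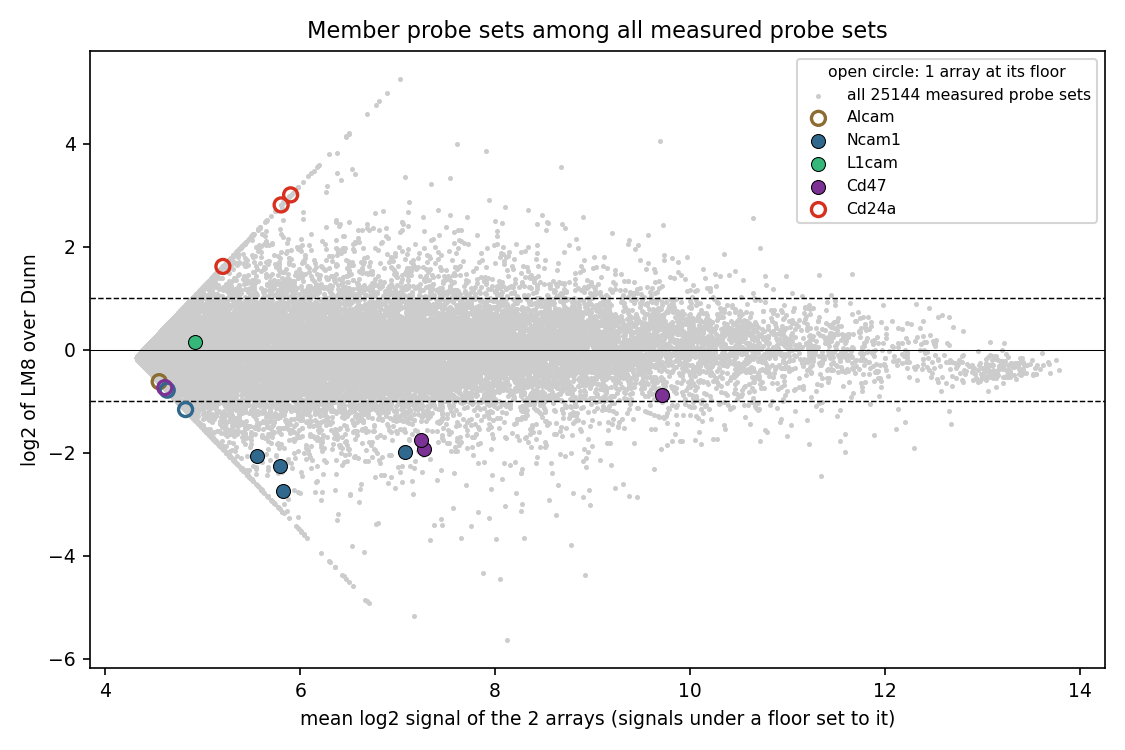
Log2 of LM8 over Dunn against the mean log2 signal of the arrays for all 25144 measured probe sets (grey) and the 15 measured member probe sets (coloured by gene, open where 1 array is at its floor), with dashed lines at 2-fold. The diagonal edges on the left are set by the floors: the 3 Cd24a points lie on the upper edge and are lower bounds, while 4 filled Ncam1 and 2 filled Cd47 points lie below -1.

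Over the 4 other scalings the direction of the 5 measured members did not change. Cd24a was above the floor in LM8 only and Alcam in Dunn only, so their unchanged direction adds no support. The log2 ratio of Ncam1 ran from -1.96 to -1.74, that of Cd24a from 3.09 to 3.25 and that of Cd47 from -0.91 to -0.64. L1cam ran from 0.26 to 0.40 and Alcam from -0.48 to -0.37. The Cd47 probe sets 1419554_at and 1428187_at stayed past 2-fold in each scaling, with the smallest differences, -1.69 and -1.50, under scaling on the hybridisation controls. Under that scaling Ncam1 probe set 1439556_at, at -0.91, was no longer called. The Alcam direction does depend on how the intensity curve is fitted: with the lowess curve fitted on measured probe sets only, another of its probe sets, 1437466_at, was the measured one, at 1.20, and 77.9% of all called genes were higher. The level of the floor set the size of the Cd24a bound. With the floor at the 75th percentile its log2 value was 0.83, no longer past 2-fold, because the Dunn floor rose to 95.6.

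**Figure D3:**
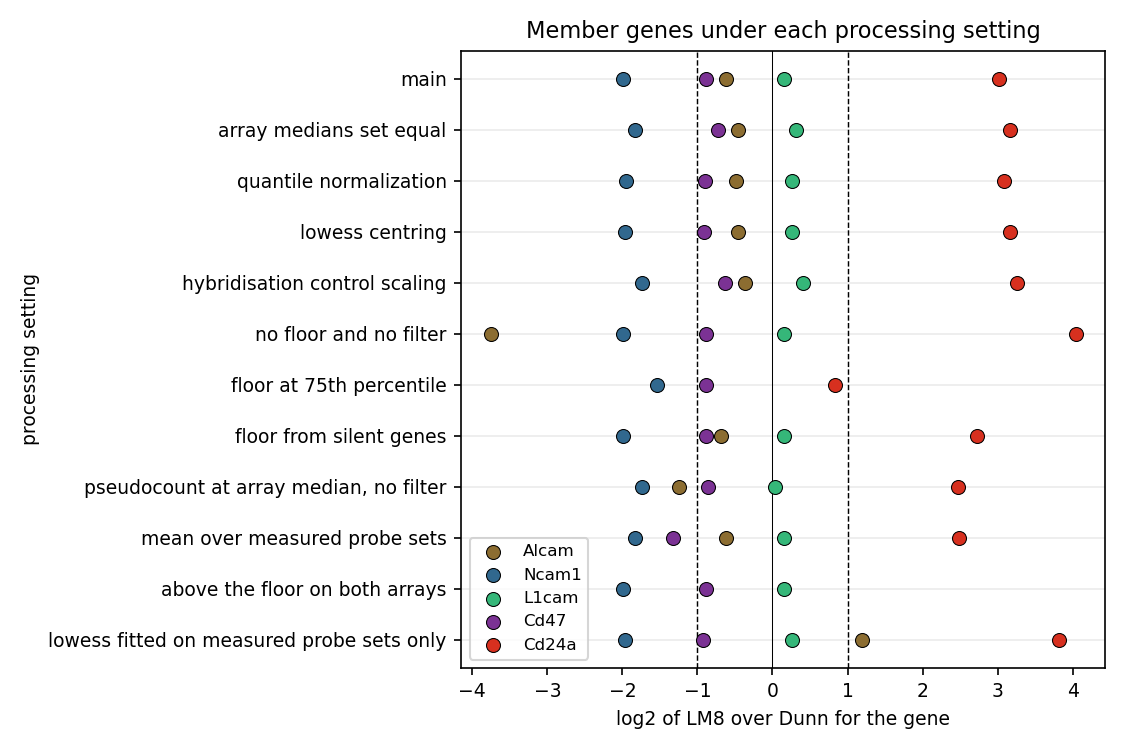
Log2 of LM8 over Dunn for the 5 measured genes (colours) under the reported setting (top row) and 11 others, with dashed lines at 2-fold. Ncam1 stays below -1 in every setting shown, Cd24a lies above 1 wherever it is shown except with the floor at the 75th percentile, Cd47 passes -1 only when its probe sets are averaged, and Alcam turns to 1.20 with the lowess curve of measured probe sets; a gene with no point was not measured in that setting.

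The binding partners of the members and the enzymes that process them were listed with the family. Of 34 listed genes, 25 were measured, 4 were at least 2-fold higher in LM8, 5 lower and 16 between, with 9 under both floors, where 6.51% of all measured genes were higher and 8.84% lower. Their median log2 ratio was -0.26, against -0.08 over all measured genes. Lgals3, which encodes the glycan-binding lectin galectin-3, was 11.7-fold higher, from 120 in Dunn to 1400 in LM8 on its 1 probe set. Gdnf, a neurotrophic factor that can signal through Ncam1, was at least 3.43-fold higher, with 72.3 in LM8, a direction fixed by the filter. Itgav, an integrin chain, was 3.38-fold higher on the brightest one, though its 3 measured probe sets ran from -0.09 to 1.76 in log2 ratio. Adam17, a protease that sheds surface proteins, was 2.09-fold higher, with 132 against 275. Its 3 measured probe sets ran from 0.83 to 1.06 in log2 ratio.

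The lower partners were integrin chains, membrane linkers and a laminin chain. Ezr, which links membrane proteins to actin, was 4.33-fold lower on its brightest probe set, but the second one gave a log2 ratio of 1.95, so it has no settled direction. Itga5, the fibronectin receptor chain, was 2.34-fold lower. Itgb2, the beta chain of the integrins that bind Icam1, was at least 2.34-fold lower, with 44.4 in Dunn and 15.9 in LM8. Passing only through Dunn fixed that direction. Ank3, an ankyrin of the type that anchors L1cam, was 2.33-fold lower and the laminin chain gene Lama4 2.16-fold lower. The 4 measured Ank3 probe sets ran from -2.38 to -0.69 in log2 ratio, and the 2 of Lama4 from -1.11 to -0.81. Apart from Ezr these calls, made on the brightest probe sets, lay close to the rule: the number of lower genes was 1 with scaling on the hybridisation controls.

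Direct partners of single members were looked up for their role, after their values were seen. Itga4, the integrin chain that binds Vcam1, lay under both floors, with highest signals over its 5 probe sets of 15.6 in Dunn and 10.4 in LM8. Cd6, the partner of Alcam, did so too (2.77 and 2.34). Sirpa, the receptor for Cd47 on macrophages, was also under both, with highest signals over its 3 probe sets of 18.5 and 14.7. Thrombospondin (Thbs1), another ligand of Cd47, had 2853 in Dunn and 1722 in LM8, a log2 ratio of -0.73. The sialyltransferase genes St8sia2 and St8sia4, which build polysialic acid on Ncam1, lay under both floors.

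Other adhesion genes of the immunoglobulin family held 5 called genes. Of 45 listed, 43 had a probe set, 26 were measured, 2 were higher in LM8, 3 lower and 21 between, with 17 under both floors and a median log2 ratio of -0.12. Over all measured genes 6.51% were higher and 8.84% lower, so that most genes lay between there too. In 2 of the 26, LM8 alone was measured with a signal between the floors, and their ratios, slightly below 0, enter this median. The brightest probe set of Clmp, a tight junction adhesion molecule, was 3.80-fold higher, and the second gave a log2 ratio of -0.37. Jam3, a junctional adhesion molecule, was 3.78-fold higher, from 24.3 to 92.0. Neo1, the netrin and guidance receptor neogenin, was 3.18-fold lower (267 against 83.9), with 5 probe sets from -1.67 to -0.04. Icam4, a relative of Icam1 from red cell precursors, was 2.83-fold lower (85.0 against 30.0), and Amigo2 at least 2.65-fold lower. Amigo2 passed only through Dunn, which fixed its direction.

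NF-kappaB genes, listed because Vcam1 and Icam1 are targets of that pathway, held 0 genes called at the floors used, and 2 were called higher with no floor and 1 with the pseudocount. Of 19 listed, 17 had a probe set and 13 were measured, with a median log2 ratio of -0.21. Over all measured genes 6.51% were higher and 8.84% lower, so few calls would fall in a list this short. Of all 18193 genes, 2553 were higher with no floor and 603 with the pseudocount. The lowest ratio was -0.65. The highest, of the subunit gene Rel, is a bound: its signals were 5.02 in Dunn, under the floor, and 35.2 in LM8, at least 1.67-fold higher. The medians of this list and of the other adhesion genes changed sign with scaling on the hybridisation controls, to 0.03 and 0.12.

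**Figure D4:**
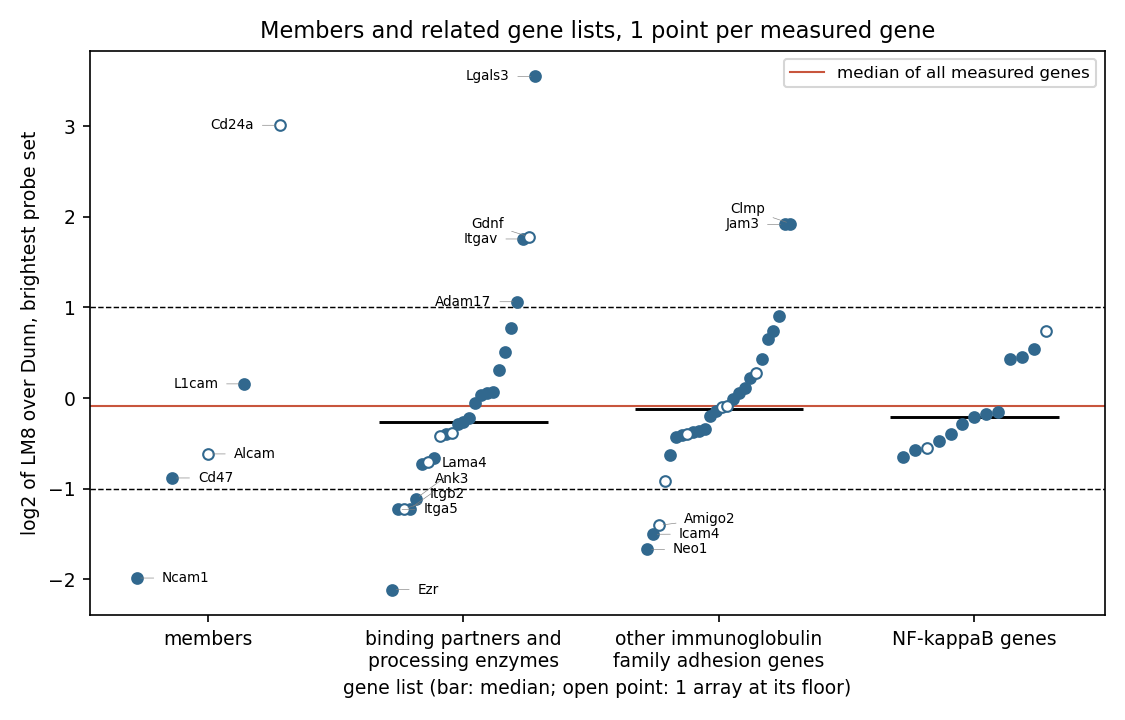
Log2 of LM8 over Dunn on the brightest measured probe set of each measured gene, for the 5 measured members and 3 related lists, sorted within a list; open points have 1 array at its floor, dashed lines mark 2-fold, black bars are list medians and the red line is the median of all measured genes, -0.08. Cd24a and Lgals3 stand highest, Ezr and Ncam1 lowest, and none of the 13 NF-kappaB points passes a dashed line, although the open ones are bounds.

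By position, Icam1, Thy1, Mcam and Ncam1 lie on chromosome 9, Cd47 and Alcam on 16, Vcam1 on 3, Cd24a on 10 and L1cam on X, in GRCm38.p6. The 10 measured genes on either side of Cd24a held 0 genes called higher and 1 lower, with log2 ratios from -1.16 to 0.61 and a median of -0.16. The 20 neighbours of Ncam1 held 4 lower and 0 higher genes, with a median of -0.61, where the other 691 measured genes of chromosome 9 had a median of -0.28. The gene before Ncam1, Ttc12, had a log2 ratio of -1.39 and the one after, Plet1, -0.73. The neighbours of Cd47 held 3 higher and 1 lower gene and had a median of 0.22, and chromosome 16 as a whole had 0.08. For these counts, 6.51% of all measured genes were called higher and 8.84% lower. The part of gene position in these ratios was not tested.

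Both lines carried osteoblast transcripts: all 8 markers with a probe set were measured, 2 higher (Omd and Smpd3), 2 lower (Ibsp and Pth1r) and 4 between, and Sp7, an osteoblast transcription factor, had 687 and 743. Macrophage markers were measured for 7 of 10 genes, of which Csf1r and Lyz2 were called lower in LM8 and 5 lay between. The 3 Csf1r probe sets, however, ran from -1.49 to 0.48 in log2 ratio. Lyz2 was at least 2.36-fold lower, a direction fixed by the filter because it passed only through Dunn. The summed signal of the measured macrophage markers was 976 in Dunn and 485 in LM8, and Ptprc, Aif1 and Itgam lay under both floors. Fcer1g gave 716 and 387 of these sums. Endothelial markers were measured for 3 of 8 genes, with Vwf 2.26-fold lower, sums of 199 and 131, and Pecam1, Cdh5, Tek, Tie1 and Emcn under both floors. None of 6 lymphocyte markers was measured. Of 7 neuron and Schwann cell markers 3 were measured, with sums of 26.2 and 148, where S100b was at least 4.58-fold higher in LM8. S100b passed only through LM8, which fixed its direction, and Snap25, Map2, Nefl and Nefm lay under both floors. The part of other cell types in the lower Ncam1, Cd47 and Itgb2 signals and the higher Cd24a signal was not tested.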

How the data were processed

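RNA of the Dunn and LM8 cell lines was measured on 1 Affymetrix mouse array each. The authors deposited probe set intensity values on a linear scale, computed with MAS5 per the submitters' processing notes; version and settings are not given in the sources used here. The deposited values had a 2% trimmed mean of 100 on both arrays. The 64 control probe sets were set aside, and the other 45037 were put on a common 2% trimmed mean, a factor of 1.00 on both arrays. Names came from the platform's annotation (34958 probe sets with 1 symbol, 932 with several, 9160 non-control ones unnamed), updated by gene identifier, which matched for 99.4%. Where several probe sets of a gene were measured, the one brightest over both arrays (mean log2) stood for it.

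With 1 array per line the log2 ratios have no test. The named genes were all members, list genes at least 2-fold apart (up to 10 a list) and markers at least 2-fold apart (up to 4 a list); others are named for their role or to spell out a count. The members, lists and alternatives were chosen with earlier results of these data known, and the neighbours, promoter motifs and the filter on both arrays after the values were seen. Alternatives tried were scaling by array medians, quantiles, a lowess curve of span 0.3 or the hybridisation controls, 3 other floors (none, the 75th percentile, the 95th percentile of silent receptor genes), a pseudocount at the array median, a 3-fold rule and other gene summaries. The steps were tested on simulated arrays with known changes placed only in genes with a bright probe set. That test does not cover genes near the floors, such as Cd24a in Dunn, Alcam and L1cam. Computations used statsmodels 0.14.6 (lowess), scipy 1.17.1, pandas 2.3.3 and numpy 2.4.6 under Python 3.11.15.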

Additional observations from a re-analysis of the deposited data

How the results depend on the processing

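Members called at the 2-fold rule numbered 3 probe sets higher and 7 lower, of 15 measured, and 1 gene each way (Cd24a and Ncam1), of 5. Over all measured probe sets 5.91% were higher and 7.79% lower, and over all measured genes 6.51% and 8.84%. Of 215 recomputed values, 172 kept their direction and call (counts within 1.5 times, list medians within the SD between probe sets), and 7 changed sign. A further 32 moved past those limits, 3 gained a call and 1 lost it. The 172 include values that could not change direction: the 3-fold rule leaves every log2 ratio as it was, and the filter fixed the direction of Cd24a. With neither floor nor filter, 14 probe sets and 4 genes were lower, Alcam at -3.76; 9 partners were lower, 10 other adhesion genes were higher and 10 lower, and 2 NF-kappaB genes were higher. Raising floors to the 75th percentile left 0 member probe sets and 0 genes higher and 3 probe sets lower, Cd24a at 0.83, with 1 partner lower and, of the other adhesion genes, 0 higher and 1 lower. The pseudocount gave 2 lower members (Ncam1 and Alcam at -1.25), 3 lower partners and 1 higher NF-kappaB gene. The 3-fold rule left 1 lower partner and 1 lower adhesion gene. Averaged probe sets gave 2 lower members (Ncam1 and Cd47 at -1.32), 2 higher and 3 lower partners and 1 higher adhesion gene. Requiring all probe sets 2-fold apart gave 0 lower members, 2 higher and 2 lower partners and 1 higher adhesion gene. Ncam1 dropped out there through 1450438_at, whose 1.72-fold is a lower bound. Scaling on the hybridisation controls left 1 lower partner, and the medians of the other adhesion and NF-kappaB genes were 0.12 and 0.032. With array medians set equal the former was 0.032. Over all genes, those higher and lower numbered 2553 and 3351 of 18193 with neither floor nor filter. They numbered 603 and 943 of 18193 with the pseudocount and 377 and 397 of 7342 with the 75th percentile. Of 11830 they were 294 and 336 at 3-fold, 626 and 918 when averaged, and 516 and 765 requiring all probe sets. Scaling on the hybridisation controls gave 1237 and 639, and equal array medians 1025 and 775.

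After the data were seen, a filter above both floors was added, which left 0 member probe sets and 0 genes higher because Dunn is under its floor for Cd24a. Of all 9913 genes passing that filter, 615 were higher and 788 lower. The lowess curve was first fitted on measured probe sets only and was refitted on all probe sets after that output was seen, so the choice between the fits was not blind. The first fit put the floors at 17.2 and 32.0. Under it 2 members were higher (Cd24a and Alcam at 1.20), as were 8 partners, 12 other adhesion genes and 1 NF-kappaB gene, with list medians of 0.031, 0.51 and 0.22. The whole array moved as well: 2568 of 12845 measured genes were higher and 727 lower, with a median of 0.18. No paired analysis was possible because each line has 1 array. Signals near the floors limit Ncam1 in LM8, L1cam and Alcam.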
